A study of Homo sapiens with 18 samples.

Results

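The 8 genes that encode cyclin-dependent kinase (CDK) inhibitors were followed in A375 cells, an established human melanoma line with an activating BRAF mutation, treated with IMD-0354. This compound is known as a blocker of IKKβ, a kinase that switches on NF-κB. The genes were chosen by symbol as CDKN1A, CDKN1B, CDKN1C, CDKN2A, CDKN2B, CDKN2C, CDKN2D and CDKN3. Each symbol matched a single identifier among the 60504 in the deposited table. The 18 libraries of 3′ end RNA sequencing form 6 groups of 3: A375 cells untreated or given 0.32, 0.63 or 1.25 µM for 24 h, and A375 cells given 0.63 µM or left untreated for 48 h. All groups were grown in the same medium with serum, and no vehicle is named for untreated cells. Whether the 3 libraries per group stem from separate cultures is not stated. The p-values thus measure the spread between these libraries alone, and that spread may be technical.

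CDKs drive the cell cycle once a cyclin binds them. The INK4 inhibitors (CDKN2A, CDKN2B, CDKN2C and CDKN2D, which encode p16, p15, p18 and p19) bind CDK4 and CDK6 and keep D-type cyclins from activating them, which keeps RB on E2F factors. The CIP/KIP inhibitors (CDKN1A, CDKN1B and CDKN1C, which encode p21, p27 and p57) bind whole cyclin-CDK complexes, above all those of CDK2. CDKN3, also called KAP, is a phosphatase that removes the activating phosphate from CDK2. In melanoma the 9p21 locus that holds CDKN2A and CDKN2B is often lost, and CDKN2A also encodes, from another start and reading frame, p14ARF.

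Values are TPM, transcript levels divided by transcript length and scaled to a fixed total per library, as the authors deposited them. Since TPM does not hold read numbers, sequencing depth and the precision it gives are unknown. Of the 8 genes, 7 passed the filter of at least 1 TPM in at least 3 libraries and were tested among 14936 genes. Changes are differences of log2(TPM + 1) with the standard error (SE) of a limma fit, they are smaller than the true fold for low genes, and a gene is called where its Benjamini-Hochberg adjusted p over all genes tested is under 0.05. In the libraries, 14647 to 17029 genes were above 0, and no pair of libraries was identical among 153. Mean Pearson's r across genes with the other libraries of the group was lowest for untreated 24 h replicates 2 (0.907) and 3 (0.920) and reached 0.953 in the others. For the 7 tested inhibitor genes, calls that were lost or gained without both of these libraries are given with the value found. Calls of the other genes named below were not checked in this way. The 24 h comparisons with untreated cells share the same 3 untreated libraries.

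Markers of the melanocyte lineage matched the label of the cells in part. The melanocyte lineage factor SOX10 stood at 8.29 to 34.72 TPM and MITF at 2.87 to 16.8 TPM over the 18 libraries. PAX3 stood at 2.35 to 9.9 TPM. The pigment enzymes TYR and TYRP1 were at 0 in all 18. PMEL and DCT were each at 0 in 15 libraries, S100B in 10 and MLANA in 9. Their highest values were 0.7, 1.46, 1.53 and 2.37 TPM. The 6 markers of undifferentiated or neural crest melanoma were above 0 in all 18. AXL stood at 37.14 to 144.22 TPM, VIM at 801.21 to 1469.27 TPM and SOX9 at 7.87 to 23.67 TPM. The lowest values of NGFR, EGFR and NES were 4.11, 6.1 and 1.37 TPM. Of the other cell types looked for, the summed level of 5 fibroblast markers did not exceed 0.75 TPM and that of 4 endothelial markers 0.69 TPM, with CDH5 and VWF at 0 in all 18. Immune markers summed to 2.98 to 5.54 TPM at 0.63 µM for 48 h, against 0 to 1.62 TPM untreated, without overlap. CD68 (0 to 5.54 TPM over all libraries), a lysosomal protein not limited to immune cells, made up most of this sum, while the defining markers PTPRC and CD3E were at 0 in all 18. The summed level of 6 keratinocyte markers ran from 72.69 to 102.57 TPM at 1.25 µM, against 39.44 to 45.12 TPM in untreated cells at 24 h. KRT10 made up most of this sum (27.65 to 102.57 TPM over all libraries), while KRT1 was at 0 in all 18, KRT5 reached 0.29 TPM and KRT14 1.14 TPM. After 48 h the keratinocyte sum was 38.4 to 42.93 TPM at 0.63 µM, against 29.15 to 35.21 TPM untreated. The summed level of 9 melanocyte lineage markers was 20.09 to 28.31 TPM at 0.63 µM, against 37.15 to 41.29 TPM untreated, at 48 h. The part of these marker levels in the results on the inhibitor genes was not tested.

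Promoter sequences are shown for the 5 genes called at 1.25 µM that have an entry, so that the genes that rose and those that fell can be set side by side. CDKN2C has 3 starts, and the one shown was chosen because it holds the most of the motifs searched. Each window runs from 200 bases before the start to 30 bases from the start on, 5′ to 3′ on the gene's own strand, from RefSeq on GRCh38.p14. Capitals mark, on either strand, CCAAT (the letters that NF-Y binds), TTTGAA (a core of the cell cycle homology region, bound by the DREAM complex), GCGGGAA (a form of the E2F site), GGGCGG (the GC box of Sp1 factors) and TATAAA.
CDKN1A (chr6:36678514-36678743, plus strand): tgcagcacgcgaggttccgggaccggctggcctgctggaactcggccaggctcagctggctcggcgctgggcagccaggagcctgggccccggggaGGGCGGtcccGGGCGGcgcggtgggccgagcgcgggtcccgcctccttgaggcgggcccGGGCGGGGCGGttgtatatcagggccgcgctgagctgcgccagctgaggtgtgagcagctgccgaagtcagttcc
CDKN2A, p14ARF start (chr9:21995295-21995524, minus strand): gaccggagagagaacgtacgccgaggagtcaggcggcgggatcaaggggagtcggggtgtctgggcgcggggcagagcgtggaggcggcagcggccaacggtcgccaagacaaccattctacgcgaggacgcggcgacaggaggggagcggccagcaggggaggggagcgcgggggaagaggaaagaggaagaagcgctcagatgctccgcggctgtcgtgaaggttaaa
CDKN2A, p16 start (chr9:21974828-21975057, minus strand): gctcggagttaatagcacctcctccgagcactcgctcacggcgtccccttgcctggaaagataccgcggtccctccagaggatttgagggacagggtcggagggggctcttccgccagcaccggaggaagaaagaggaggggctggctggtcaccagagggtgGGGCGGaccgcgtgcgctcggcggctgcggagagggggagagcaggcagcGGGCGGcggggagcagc
CDKN2C, second of 3 starts (chr1:50968506-50968735, plus strand): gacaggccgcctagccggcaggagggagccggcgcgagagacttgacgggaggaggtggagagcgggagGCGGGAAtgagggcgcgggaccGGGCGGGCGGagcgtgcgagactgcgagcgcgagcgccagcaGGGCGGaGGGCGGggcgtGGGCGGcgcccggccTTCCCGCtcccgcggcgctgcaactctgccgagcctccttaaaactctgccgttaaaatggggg
CDKN2D (chr19:10568950-10569179, minus strand): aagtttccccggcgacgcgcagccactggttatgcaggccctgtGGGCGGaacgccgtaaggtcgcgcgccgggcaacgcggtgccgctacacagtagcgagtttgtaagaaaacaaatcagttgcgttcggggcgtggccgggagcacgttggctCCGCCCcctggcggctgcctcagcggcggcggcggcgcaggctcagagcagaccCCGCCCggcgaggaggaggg
CDKN3 (chr14:54396807-54397036, plus strand): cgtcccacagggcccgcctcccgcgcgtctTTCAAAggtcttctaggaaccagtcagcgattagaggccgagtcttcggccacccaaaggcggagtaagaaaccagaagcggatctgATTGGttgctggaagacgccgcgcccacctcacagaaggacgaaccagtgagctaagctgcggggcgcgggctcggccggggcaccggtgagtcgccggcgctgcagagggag

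In these windows, GCGGGAA was found in CDKN2C, at -131 and, on the other strand, at -34, counted from the start as 1, together with 5 copies of GGGCGG. Of the other CDKN2C starts, not printed, the first held none of the 5 motifs, and the third held CCAAT and 1 GGGCGG. CDKN3 held TTTGAA at -170 and CCAAT at -83, both on the other strand. CDKN1A held 4 copies of GGGCGG, at -104, -94, -45 and -40, the last pair sharing a base. The p16 start of CDKN2A held GGGCGG at -37 and 14, and none of the 5 motifs was found at the p14ARF start. CDKN2D held GGGCGG at -156 and, on the other strand, at -44 and 11. Among 35116 promoter windows of the same length, 5.23% held GCGGGAA, 11.6% TTTGAA, 29.8% CCAAT, 41.7% GGGCGG and 9.12% TATAAA. These shares are per window and do not allow for the choice among the CDKN2C starts by their motifs. A match describes letters only. CDKN1C had no entry among these promoters.

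CDKN1A and CDKN2A rose and CDKN1C, CDKN2C, CDKN2D and CDKN3 fell at 1.25 µM, which left CDKN1B as the single tested gene without a call (adjusted p = 0.93, limma). That is 6 of 7 genes called, against 11.3% of all genes tested. In 6 of the 7 the treated and untreated libraries did not overlap, as in 26.1% of all genes. The median change of the 7 genes was -1.09, beside -0.01 for all genes. At the lower dose of 0.63 µM for 24 h, 2 of the 7 genes fell and none rose, beside 2.18% of all genes called, and the median change was -0.44. In bulk RNA, fewer cells in a cell cycle phase that uses a gene and less of its RNA per cell cannot be told apart.

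**Figure D1:**
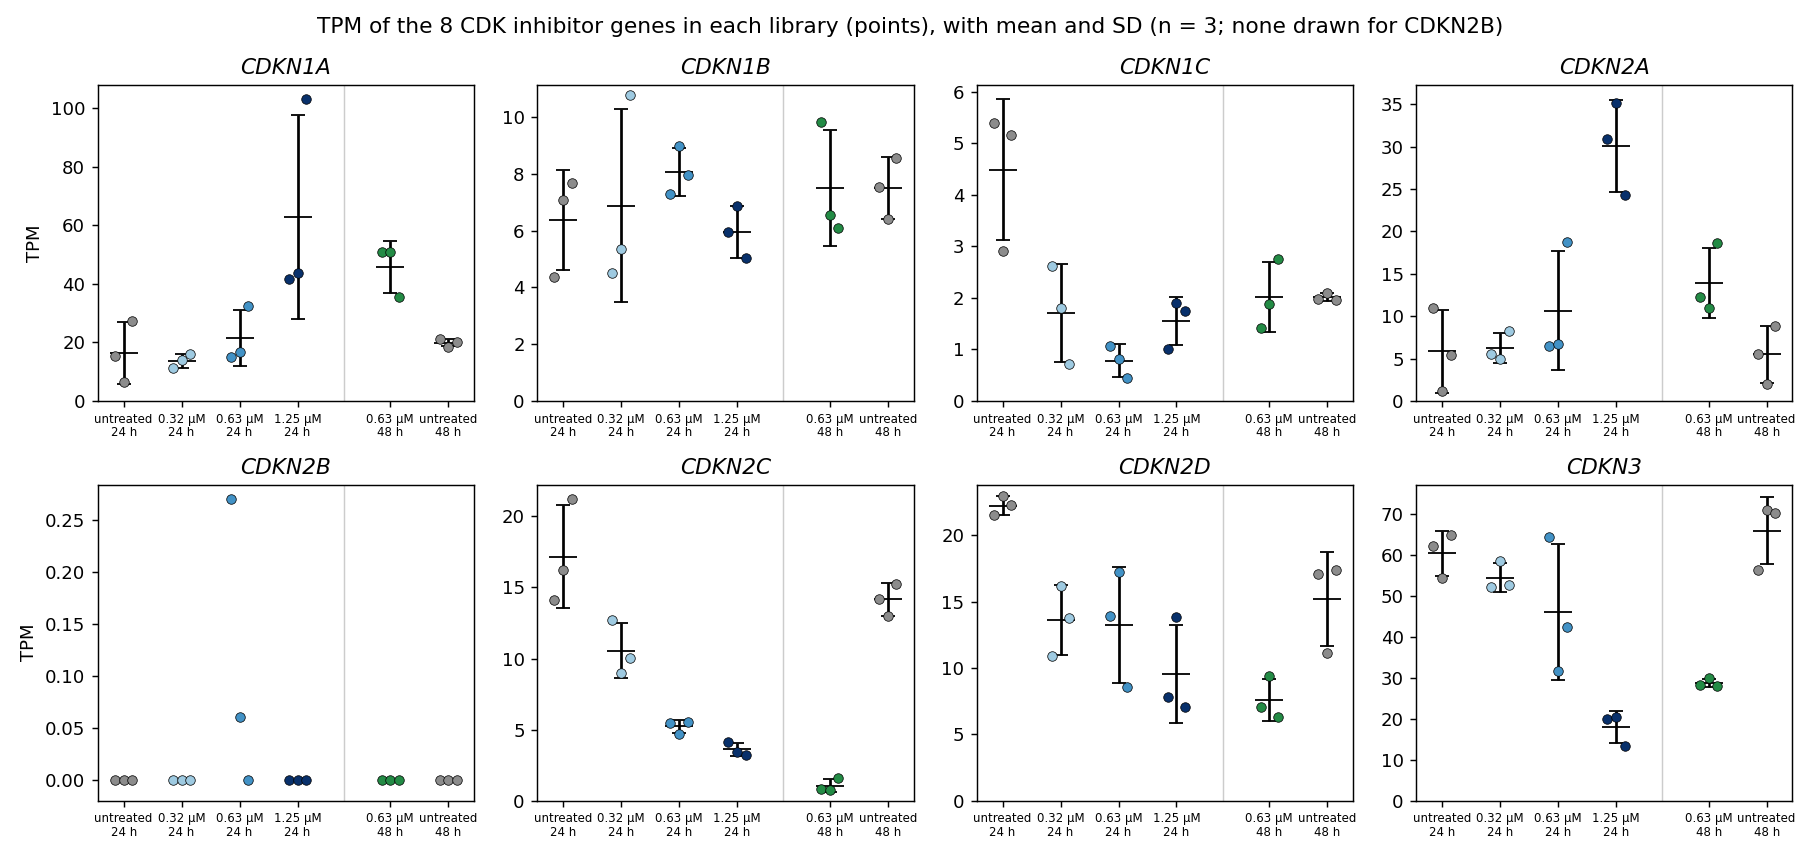
TPM of each CDK inhibitor gene (vertical axis, linear, its own scale per gene) in the 6 groups; points are libraries, bars the mean and SD (n = 3), with none drawn for CDKN2B. CDKN2A was highest at 1.25 µM (24.33 to 35.15 TPM), CDKN1A reached 41.5 to 103.06 TPM at 1.25 µM and 35.56 to 50.97 TPM at 0.63 µM for 48 h, and CDKN2C was lowest at 0.63 µM for 48 h (0.76 to 1.61 TPM).

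CDKN1A, which encodes p21 and is a gene of many stress responses, lies at chr6:36676460-36687339 on the plus strand (GENCODE 29, GRCh38). At 24 h it stood at 15.33, 6.45 and 27.29 TPM in untreated cells, 11.14, 13.97 and 15.98 TPM at 0.32 µM, 15.03, 16.81 and 32.3 TPM at 0.63 µM, and 41.5, 43.75 and 103.06 TPM at 1.25 µM. The 3 libraries at 1.25 µM lay above all libraries of the other 24 h groups, and replicate 3 stood well apart from the other 2. Mean levels were 62.8 ± 34.9 TPM at 1.25 µM and 16.4 ± 10.5 TPM untreated (SD, n = 3 each), and the log2 change was 1.95 (SE 0.421, adjusted p = 0.00698, limma). The call was lost when only these 2 groups entered the limma fit (adjusted p = 0.0913). At 0.63 µM for 24 h the change was 0.49 (adjusted p = 0.593) and at 0.32 µM -0.05 (adjusted p = 1), with overlapping groups in both. An annotated RNA on the opposite strand, DINOL, was not analysed here, and strand use in the counting is not stated.

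After 48 h, CDKN1A stood at 50.85, 50.97 and 35.56 TPM at 0.63 µM, against 21.05, 18.57 and 19.98 TPM in untreated cells. Every treated library was above every untreated one. The log2 change of 1.15 (SE 0.421) did not pass the test (adjusted p = 0.116, limma). It passed without untreated 24 h replicate 2, which is in neither group but enters the shared estimate of the spread (adjusted p = 0.0433), without both replicates 2 and 3 (0.0409), when only the 2 groups compared were fitted (0.0102), and with library weights (0.0105).

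CDKN1B, which encodes p27 and is controlled to a large part by protein turnover through SKP2, was called in none of the 9 comparisons. It lies at chr12:12715058-12722371 on the plus strand and ran from 4.36 to 10.78 TPM over all 18 libraries. Over the 24 h groups it stood at 4.36, 7.09 and 7.69 TPM untreated, 4.52, 5.37 and 10.78 TPM at 0.32 µM, 7.28, 8.98 and 7.97 TPM at 0.63 µM, and 5.94, 6.87 and 5.05 TPM at 1.25 µM. After 48 h they were 9.85, 6.55 and 6.1 TPM at 0.63 µM, against 7.53, 6.4 and 8.58 TPM untreated. At 1.25 µM and at 48 h the libraries overlapped with the untreated ones, with changes of -0.06 (SE 0.287, adjusted p = 0.93) and -0.02 (SE 0.287, adjusted p = 0.988, limma). An annotated intronic transcript on its strand, AC008115.3, stood at 0 to 2.87 TPM, and reads from the shared stretch could belong to either gene.

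CDKN1C, which encodes p57 and is an imprinted gene in human tissues, had the lowest mean of the tested genes in untreated cells at 24 h. It lies at chr11:2883213-2885773 on the minus strand. At 24 h it stood at 5.4, 2.91 and 5.15 TPM untreated, 2.61, 1.8 and 0.71 TPM at 0.32 µM, 1.07, 0.82 and 0.44 TPM at 0.63 µM, and 1.01, 1.89 and 1.75 TPM at 1.25 µM. All 9 treated libraries were below all 3 untreated ones, and the lowest group was 0.63 µM, not 1.25 µM. Its log2 change was -1.05 at 0.32 µM (SE 0.314, adjusted p = 0.645), -1.61 at 0.63 µM (SE 0.314, adjusted p = 0.0171) and -1.09 at 1.25 µM (SE 0.314, adjusted p = 0.0343, limma). Levels this low make the size of the change rest on the pseudocount: at 0.63 µM it was -2.41 with 0.1 TPM and -0.71 with 5 TPM in place of 1 TPM.

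The calls for CDKN1C depended on single libraries and on settings. At 0.63 µM the adjusted p was 0.0513 without untreated replicate 1 and 0.097 without treated replicate 3 (limma). At 1.25 µM it was 0.107 and 0.0898 without untreated replicates 1 and 3, and 0.116, 0.0536 and 0.0689 without treated replicates 1, 2 and 3. With only the 2 groups fitted it was 0.155 at 0.63 µM and 0.118 at 1.25 µM, and without untreated replicates 2 and 3 it was 0.125 and 0.123. The call at 1.25 µM was also lost with a pseudocount of 0.1 TPM (adjusted p = 0.0697) and with no filter on low values (0.0658). After 48 h CDKN1C stood at 1.42, 1.88 and 2.75 TPM at 0.63 µM, against 1.98, 2.1 and 1.96 TPM untreated, and the groups overlapped (change -0.02, SE 0.314, adjusted p = 0.987). The untreated libraries at 48 h were all below those at 24 h, a change of -0.83 that did not pass (adjusted p = 0.582).

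CDKN2A, at chr9:21967753-21995301 on the minus strand, was measured near its 3′ end. The p16 and p14ARF transcripts share that end, so its TPM cannot be split between them. At 24 h it stood at 10.94, 1.21 and 5.44 TPM untreated, 5.5, 4.99 and 8.29 TPM at 0.32 µM, 6.46, 6.73 and 18.73 TPM at 0.63 µM, and 30.88, 35.15 and 24.33 TPM at 1.25 µM. The 3 libraries at 1.25 µM were above all others of the study, and untreated replicate 2 was the lowest of all. Means were 30.1 ± 5.45 TPM at 1.25 µM and 5.86 ± 4.88 TPM untreated (SD, n = 3 each), a log2 change of 2.48 (SE 0.538, adjusted p = 0.00732, limma). Without untreated replicates 2 and 3 the change was 1.37 (adjusted p = 0.254, limma, with 1 untreated library assumed to vary like the other groups), and with only the 2 groups fitted the adjusted p was 0.0606.

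After 48 h CDKN2A stood at 12.22, 10.92 and 18.62 TPM at 0.63 µM, against 5.55, 2.03 and 8.86 TPM untreated. The groups did not overlap, and the change of 1.33 (SE 0.538) did not pass the test (adjusted p = 0.159, limma). It passed with library weights (adjusted p = 0.045). CDKN2B, which encodes p15, a target of TGF-β signalling, lies beside it at chr9:22002903-22009363. It was at 0 in 16 libraries and at 0.27 and 0.06 TPM in replicates 1 and 2 at 0.63 µM for 24 h, and it was not tested. The antisense gene CDKN2B-AS1 overlaps both genes and did not exceed 0.35 TPM. Without stated strand use, only reads from a shared stretch could belong to either gene, and how far the overlap reaches was not examined. MTAP, the neighbouring gene that encodes an enzyme of methionine salvage, was 0.68 lower on the log2 scale at 1.25 µM than in untreated cells (adjusted p = 0.0394, limma).

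CDKN2C was the most strongly lowered of the 7 genes at 48 h. It encodes p18, is an E2F-responsive gene, and lies at chr1:50960745-50974633 on the plus strand. At 24 h it stood at 14.13, 16.2 and 21.2 TPM untreated, 12.68, 8.95 and 10.02 TPM at 0.32 µM, 5.48, 4.66 and 5.51 TPM at 0.63 µM, and 4.14, 3.44 and 3.24 TPM at 1.25 µM. No neighbouring doses overlapped, so the libraries formed 4 descending steps. The change from untreated was -0.65 at 0.32 µM (SE 0.225, adjusted p = 0.75), -1.53 at 0.63 µM (SE 0.225, adjusted p = 0.00291) and -1.97 at 1.25 µM (SE 0.225, adjusted p = 4.97e-05, limma). The call at 0.63 µM was lost with only the 2 groups fitted (adjusted p = 0.109) and without untreated replicates 2 and 3 (0.129). At 1.25 µM its fall was larger than that of CDKN3 on the log2(TPM + 1) scale, but smaller with a pseudocount of 5 TPM (-1.35, against -1.52 for CDKN3) and without untreated replicates 2 and 3.

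After 48 h, CDKN2C stood at 0.81, 0.76 and 1.61 TPM at 0.63 µM, against 14.19, 13 and 15.27 TPM in untreated cells. These 3 treated libraries were the lowest of the study, and the change of -2.90 (SE 0.225, adjusted p = 2.19e-06, limma) was the fourth strongest by p among 14936 genes. The size depends on the pseudocount, being -3.69 with 0.1 TPM and -1.66 with 5 TPM. The calls at 1.25 µM and at 48 h held in all 31 alternatives run.

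CDKN2D, which encodes p19 and like CDKN2C is an E2F-responsive gene, lies at chr19:10566462-10569059 on the minus strand. At 24 h it stood at 21.51, 22.94 and 22.3 TPM untreated, 10.88, 16.2 and 13.74 TPM at 0.32 µM, 13.94, 17.22 and 8.6 TPM at 0.63 µM, and 7.8, 13.81 and 7.07 TPM at 1.25 µM. The untreated libraries were close together and above all 9 treated libraries, which overlapped among themselves. Among the 24 h doses, only the change of -1.19 at 1.25 µM passed (SE 0.282, adjusted p = 0.012, limma), beside -0.69 at 0.32 µM (adjusted p = 0.777) and -0.75 at 0.63 µM (adjusted p = 0.17). That call was lost without treated replicate 3 (adjusted p = 0.06), without untreated replicates 2 and 3 (0.162) and with only the 2 groups fitted (0.0712). After 48 h CDKN2D stood at 7.09, 9.36 and 6.31 TPM at 0.63 µM, against 17.06, 11.15 and 17.42 TPM untreated, without overlap (change -0.91, SE 0.282, adjusted p = 0.0618). This change passed with library weights (adjusted p = 0.0214), with a filter of 5 TPM (0.0412), and without 0.63 µM 24 h replicate 3 (0.0418) or 1.25 µM replicate 2 (0.0434), which are in neither group.

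CDKN3 was the most abundant of the 8 genes by TPM in untreated cells. In other human cells its mRNA peaks late in the cycle, and it lies at chr14:54396849-54420218 on the plus strand. The 24 h groups stood at 62.11, 54.37 and 64.87 TPM untreated, 52.26, 58.51 and 52.81 TPM at 0.32 µM, 64.36, 31.6 and 42.4 TPM at 0.63 µM, and 19.97, 20.42 and 13.44 TPM at 1.25 µM. The 3 lower groups of dose overlapped and the libraries at 1.25 µM lay below them all. The change at 1.25 µM was -1.72 (SE 0.221, adjusted p = 0.000145), beside -0.14 at 0.32 µM (adjusted p = 0.949) and -0.44 at 0.63 µM (adjusted p = 0.318, limma). After 48 h CDKN3 stood at 28.26, 29.9 and 27.97 TPM at 0.63 µM, against 56.45, 71.02 and 70.37 TPM untreated, a change of -1.16 (SE 0.221, adjusted p = 0.00405). The calls at 1.25 µM and at 48 h held in all 31 alternatives run.

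**Figure D2:**
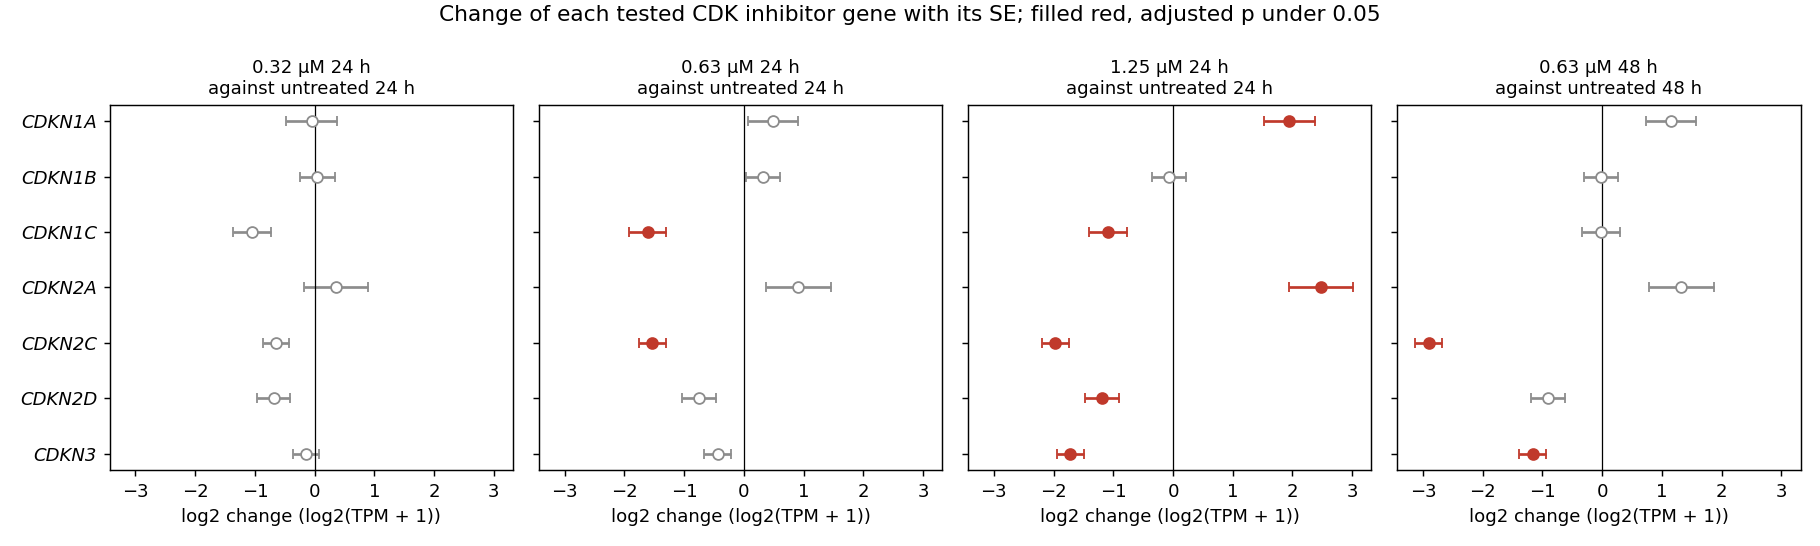
Change of the 7 tested genes (rows) on the log2(TPM + 1) scale (horizontal axis) in the 4 comparisons with untreated cells; bars are SE, and filled red marks an adjusted p under 0.05. No gene was filled at 0.32 µM, 6 were at 1.25 µM, and CDKN2C had the largest fall at 48 h (-2.90).

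At 0.32 µM none of the 7 genes was called by limma, beside 0.0268% of all genes (4 of 14936, with 912 at an unadjusted p under 0.05). CDKN1C, CDKN2C and CDKN2D lay below untreated cells without overlap, 3 of 7 genes beside 8.68% of all genes. Between neighbouring doses, none of the 7 was called for 0.63 against 0.32 µM, beside 0.556% of all genes (83 genes, with 2082 at an unadjusted p under 0.05). CDKN2C came nearest, with a change of -0.88 (SE 0.225, adjusted p = 0.0913). For 1.25 against 0.63 µM, CDKN3 alone was called, 1 of 7 beside 1.51% of all genes, with a change of -1.28 (SE 0.221, adjusted p = 0.00851), lost with only these groups fitted (0.121). CDKN1A (1.46, adjusted p = 0.0944) and CDKN2A (1.56, adjusted p = 0.161) were above 0.63 µM without overlap in this step, and CDKN1B (-0.39, adjusted p = 0.569), CDKN2C (-0.43, adjusted p = 0.378) and CDKN3 below it, 5 of 7 genes beside 20.1% of all genes. CDKN1A passed with library weights (adjusted p = 0.0284), without untreated 24 h replicate 2 (0.0321) and without both replicates 2 and 3 (0.0336), which are in neither group of that step.

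A linear trend over the 4 groups at 24 h called 6 of the 7 genes, beside 14.7% of all genes. The slope, in log2(TPM + 1) per µM, was 1.66 for CDKN1A (SE 0.322, adjusted p = 0.00269) and 2.02 for CDKN2A (SE 0.412, adjusted p = 0.0038, limma). It was -1.58 for CDKN2C (SE 0.172, adjusted p = 2.02e-05), -1.41 for CDKN3 (SE 0.169, adjusted p = 5.37e-05), -0.87 for CDKN2D (SE 0.216, adjusted p = 0.0132) and -0.76 for CDKN1C (SE 0.241, adjusted p = 0.0433). Slopes of CDKN1B were near 0 (-0.03, adjusted p = 0.943). The CDKN1C trend lost its call in 18 of 30 alternatives (adjusted p = 0.0895 without untreated replicates 2 and 3), and its levels were lowest at the middle dose. Without untreated replicates 2 and 3 the slope of CDKN2A was 1.31 (adjusted p = 0.0803) and that of CDKN2D did not pass (0.105), and the slope of CDKN2D did not pass without 1.25 µM replicate 1 (0.0562) or replicate 3 (0.0736) either.

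At 48 h CDKN2C and CDKN3 fell and none of the 7 rose, 2 of 7 called beside 7.63% of all genes. In 5 of 7 genes the treated and untreated libraries did not overlap, beside 30.5% of all genes. The median change over all genes was -0.15 at 48 h and 0.00 under median-of-ratios scaling, so changes there are read relative to that shift. Under that scaling the change was -2.77 for CDKN2C (adjusted p = 3.05e-06), -0.96 for CDKN3 (adjusted p = 0.0158), 1.35 for CDKN1A (adjusted p = 0.0706) and 1.52 for CDKN2A (adjusted p = 0.116). CDKN1B and CDKN1C changed sign under it, at 0.17 and 0.12, both far from a call. With library weights 5 of the 7 genes were called, beside 2312 of the 14936 genes tested, against 1140 without weights.

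None of the 7 genes passed the test that the effect of 0.63 µM differed between 48 h and 24 h, beside 0.0335% of all genes (5 genes, with 1784 at an unadjusted p under 0.05, limma). The median of this difference over all genes was -0.17. It was -1.37 for CDKN2C (SE 0.318, adjusted p = 0.112), which passed with library weights (-1.51, adjusted p = 0.0242), and 1.59 for CDKN1C (SE 0.444, adjusted p = 0.164). Untreated cells at 48 h against untreated cells at 24 h gave no call among the 7, beside 0.0134% of all genes (2 genes, with 1181 at an unadjusted p under 0.05). CDKN2D stood at 17.06, 11.15 and 17.42 TPM in the 48 h untreated libraries, below the 21.51 TPM or more at 24 h.

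The order of the genes by mean TPM changed with treatment. Because 3′ end reads do not scale with length as TPM assumes, the order between genes also carries the length division. CDKN3 (60.5 TPM) led in untreated cells at 24 h, followed by CDKN2D (22.2 TPM) without overlap. Then came CDKN2C (17.2 TPM), CDKN1A (16.4 TPM), CDKN1B (6.38 TPM), CDKN2A (5.86 TPM) and CDKN1C (4.49 TPM), with overlap between neighbours among these. At 1.25 µM CDKN1A (62.8 TPM) led, followed without overlap by CDKN2A (30.1 TPM) and CDKN3 (17.9 TPM). At 0.63 µM for 48 h CDKN1A (45.8 TPM) led CDKN3 (28.7 TPM) and CDKN2A (13.9 TPM), again without overlap between neighbours.

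The summed TPM of the 8 genes was 131.5 ± 24.0 TPM at 1.25 µM and 133.0 ± 21.4 TPM in untreated cells at 24 h (SD, n = 3 each), a smaller difference than the spread between libraries. CDKN3 made up 14.2 ± 5.04% of the sum at 1.25 µM, against 45.8 ± 3.43% in untreated cells at 24 h. CDKN1A made up 45.8 ± 16.9%, against 11.7 ± 5.97%. By library, the CDKN1A share at 1.25 µM was 37.31, 34.91 and 65.25%. After 48 h CDKN3 made up 27.0% at 0.63 µM, against 50.7% untreated, and CDKN1A 42.7%, against 15.3%. Within the INK4 genes, CDKN2A held 69.8 ± 2.55% of the sum at 1.25 µM and 12.5 ± 10.3% in untreated cells at 24 h. At 48 h it held 60.9 ± 9.13% at 0.63 µM and 14.7 ± 6.79% untreated. CDKN2C held 8.53% of the INK4 sum at 1.25 µM, against 37.9% untreated at 24 h, and 4.57% at 0.63 µM, against 41.7% untreated, at 48 h. These shares restate the levels above and were not tested.

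**Figure D3:**
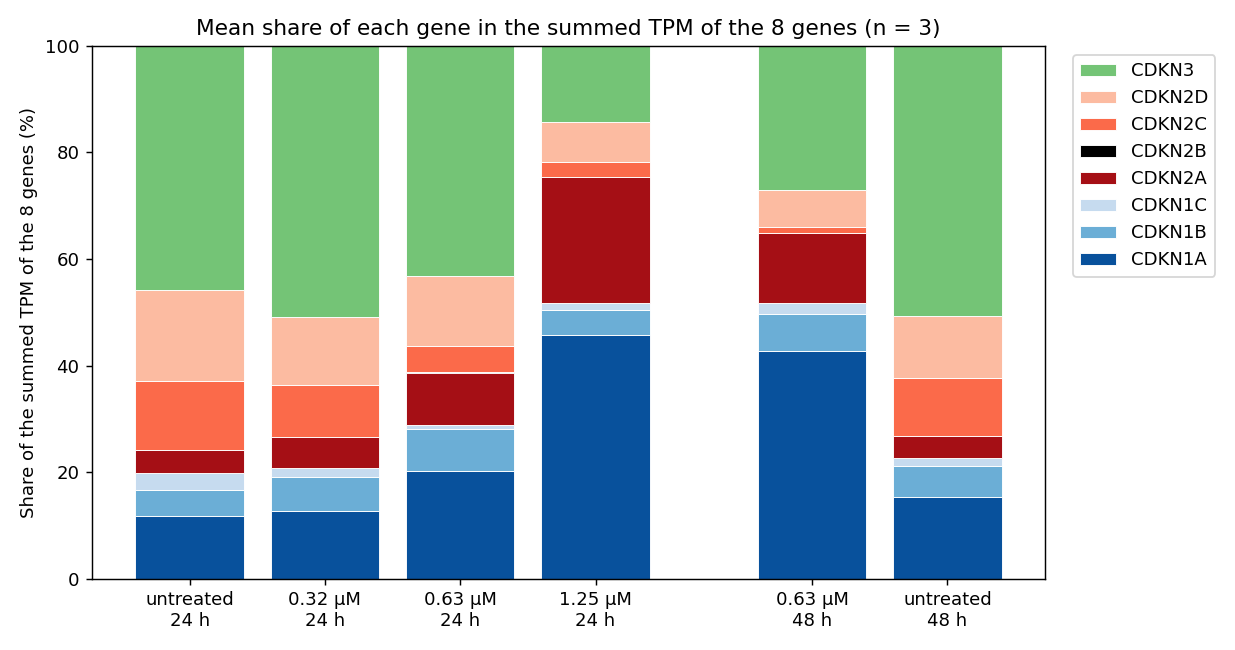
Mean share of each gene in the summed TPM of the 8 CDK inhibitor genes (vertical axis, %, n = 3) in the 6 groups. CDKN3 makes up 14.2% and CDKN1A 45.8% at 1.25 µM, against 45.8% and 11.7% in untreated cells at 24 h; CDKN2B is too low to be seen.

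The genes with the nearest pattern over the 6 group means were ranked by the root mean square (RMS) difference of centred log2(TPM + 1), among 8927 genes with a symbol and a mean of at least 5 TPM in a group, or 8928 for CDKN1C. The nearest to CDKN3 was CENPU at 0.069, followed by NCAPD2 and DLGAP5. CENPQ was nearest to CDKN2D, at 0.076. FAM111B, at 0.126, was the nearest to CDKN2C, whose own RMS about its mean was 1.09. CDKN1A had GAS5 at 0.200, IFI16 at 0.209 and DMKN at 0.210, and CDKN2A had MAP1LC3B at 0.154 and ITPRIP at 0.161. EIF3J was nearest to CDKN1C, at 0.140. With 6 points per gene and this many candidates, nearness is a description only.

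Of a list of CDKs, cyclins and genes that work with them, 15 of 16 were measured. The list includes CDK7, CCNH and MNAT1, so it is wider than the genes whose products the inhibitors bind. At 1.25 µM 6 fell and 1 rose, 7 of 15 beside 11.3% of all genes called, with a median change of -0.35 beside -0.01 for all genes. CDK1, the mitotic kinase, fell by 2.74 and its partner CCNB1 by 2.13, while CCNE2, a partner of CDK2, fell by 1.90 and CCNA2 by 1.68 on the log2 scale (adjusted p = 3.06e-05, 3.79e-06, 0.0282 and 0.000648, limma). CCNA1 rose by 1.60 (adjusted p = 0.027). At 48 h 6 of 15 fell and none rose, beside 7.63% of all genes called, led by CCND3 (-1.75), CDK1 (-1.55), CCNB1 (-1.50) and CCNA2 (-1.46), with a median of -0.56 beside -0.15 for all genes. At 0.63 µM for 24 h CCNB1 alone was called (-1.13, adjusted p = 0.0057), 1 of 15 beside 2.18% of all genes, and at 0.32 µM none.

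Of 13 pocket proteins and E2F factors, which the RB pathway controls, 2 fell and 1 rose both at 1.25 µM and at 48 h. That is 3 of 13, beside 11.3% and 7.63% of all genes called, and the list's median was -0.49 at 1.25 µM and -0.44 at 48 h, beside -0.01 and -0.15 for all genes. E2F1, an activator of S phase genes, stood at 2.71, 1.6 and 1.65 TPM at 1.25 µM, against 11.93, 6.95 and 8.84 TPM in untreated cells at 24 h (change -1.77, adjusted p = 0.0036, limma). The groups did not overlap. E2F7, a repressor, rose by 1.39 and TFDP1, the partner of E2F factors, fell by 0.87 at 1.25 µM. At 48 h the changes were -1.56 for E2F1, 1.44 for E2F7 and -1.04 for TFDP1.

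**Figure D4:**
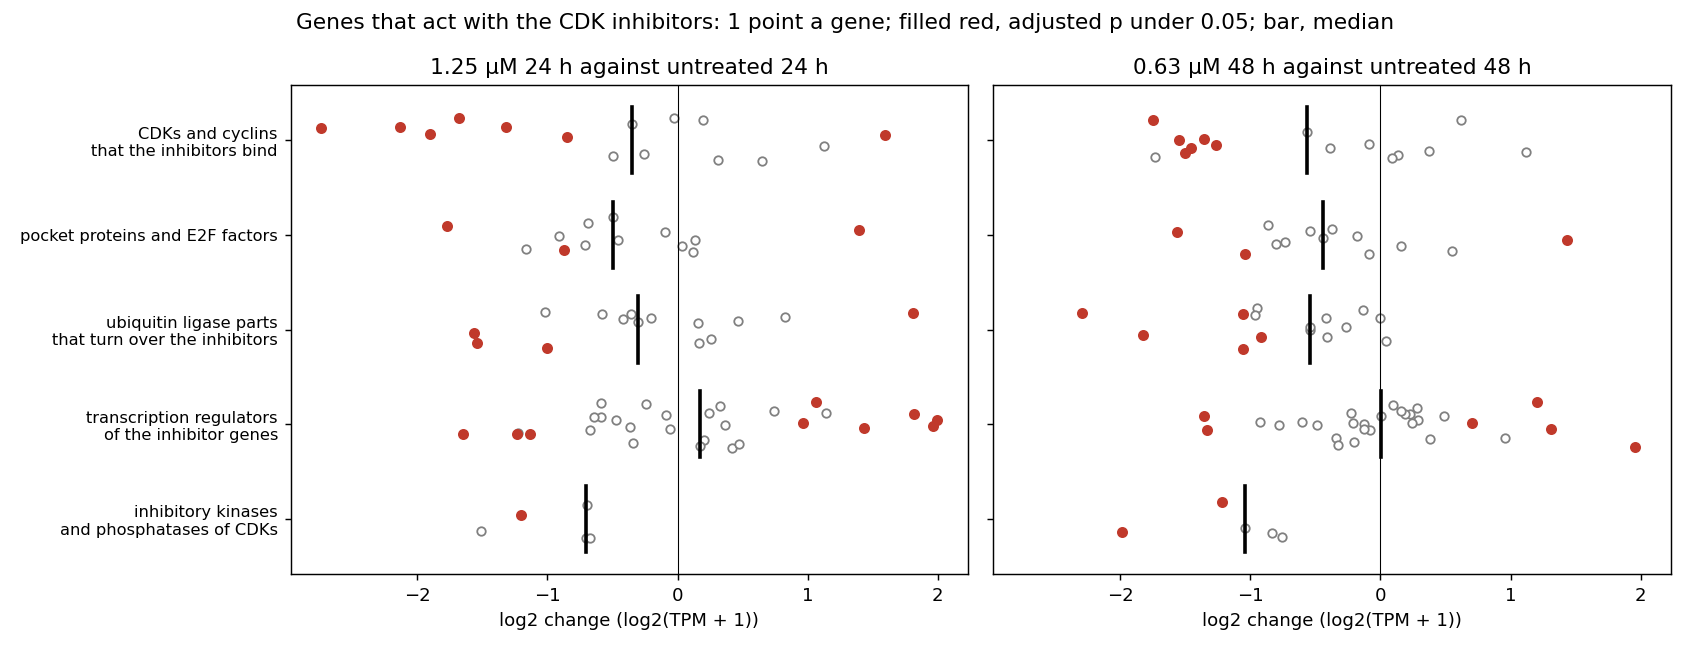
Change on the log2(TPM + 1) scale (horizontal axis) of genes that act with the CDK inhibitors (rows: gene lists; 1 point a gene; bar, the list's median), at 1.25 µM for 24 h and 0.63 µM for 48 h against untreated cells; filled red marks an adjusted p under 0.05. CDK1 lies furthest to the left at 1.25 µM (-2.74) and ATF3 furthest to the right at 48 h (1.95).

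Of 15 parts of the ubiquitin ligases that turn over the inhibitors, 3 fell and 1 rose at 1.25 µM and 5 fell at 48 h, beside 11.3% and 7.63% of all genes called. The list's median was -0.30 at 1.25 µM and -0.54 at 48 h, beside -0.01 and -0.15 for all genes. SKP2, the F-box protein that marks p27 for destruction, fell by 1.54 at 1.25 µM (adjusted p = 0.00368) and by 1.83 at 48 h (adjusted p = 0.00135, limma). PCNA, on which p21 is degraded during S phase, fell by 1.56 and 2.29 in the same comparisons, and CDC20 fell by 1.00 and 1.06. FBXL12 rose by 1.81 at 1.25 µM (adjusted p = 0.0192). RBX1 fell by 1.05 at 48 h. The 5 kinases and phosphatases that act on CDKs included CDC25B, which fell by 1.20 at 1.25 µM, and PKMYT1 and CDC25A, which fell by 1.99 and 1.22 at 48 h. These are 1 of 5 and 2 of 5 called, beside 11.3% and 7.63% of all genes. The medians were -0.70 and -1.04, beside -0.01 and -0.15 for all genes.

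Of 34 regulators of transcription of the inhibitor genes, 29 were measured. At 1.25 µM 6 rose and 3 fell, 9 of 29 beside 11.3% of all genes called, with a median of 0.17 beside -0.01 for all genes. MYC, known as a repressor of CDKN1A, rose by 1.99 (adjusted p = 0.000687), CEBPB by 1.96 (adjusted p = 0.000343) and EGR1 by 1.81 (adjusted p = 0.00197, limma). ID1, which in other cells holds down CDKN2A, fell by 1.65 (adjusted p = 0.00388, limma). Whether any of these regulators had a part in the levels of the inhibitor genes was not tested. At 0.63 µM for 24 h CEBPB (1.66), MYC (1.60) and EGR1 (1.32) rose and none fell, 3 of 29 beside 2.18% of all genes. At 48 h 4 rose and 2 fell, 6 of 29 beside 7.63% of all genes, led by ATF3 (1.95), SMAD3 (-1.35), HDAC1 (-1.33) and CEBPB (1.31).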

How the data were processed

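Gene expression was measured in 18 QuantSeq 3′ mRNA libraries (FWD, Lexogen) of A375 cells, grouped from the labels. The authors deposited a single table of TPM per Ensembl identifier; each library summed to 999999.1 to 1000000.5. The tools named in the submitters' processing notes are DESeq2, RSEM 1.3.1, STAR 2.7 and cutadapt 1.18, without their roles. Not given in the sources used here are the build, the annotation and whether counting used strand. TPM holds no counts, so no count test was made.

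From the deposited TPM, log2(TPM + 1) was computed for 14936 genes that reached 1 TPM in 3 or more libraries. With limma 3.58.1 (and statmod 1.5.0, in R 4.3.3) 1 model was fitted with a mean per group (12 residual degrees of freedom) and a mean-variance trend; p-values are two-sided and Benjamini-Hochberg adjusted over these genes, with a threshold of 0.05. The 9 comparisons were each dose against untreated cells, neighbouring doses, the dose trend, 0.63 µM at 48 h, its difference from 24 h, and untreated cells at both times. The code was tested on simulated data. Symbols came from a name table that matched 56558 identifiers, and coordinates from GENCODE release 29 (56996 matched). The 8 genes and all gene lists were chosen with earlier results of these data known. Named genes are the 8 inhibitors, up to 4 called genes of each list with the largest change per comparison (the 2 largest where fewer than 2 passed; those that did not pass are left out of the text), and the nearest patterns of each called inhibitor. E2F1 values per library were added after they were seen. Results of some single genes and of 1 gene list are not reported here. Alternatives changed the pseudocount, filter, scaling, variance trend, library weights, replicate block, the groups fitted and the libraries left out.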

Additional observations from a re-analysis of the deposited data

How the results depend on the processing

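Each of 63 changes of a single gene was computed under up to 31 alternatives, giving 1944 values, of which 1842 kept their direction and side of the threshold, 44 lost the call, 13 gained it and 45 changed sign. No value that changed sign was called. The calls of CDKN2C and CDKN3 at 1.25 µM, at 48 h and in the trend were kept throughout. CDKN1C could not be tested with at least 5 TPM required.

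At 0.63 µM for 24 h 2 inhibitor genes were called, but 1 with that filter, 0 with only the compared groups fitted, 0 without untreated 24 h replicates 2 and 3, and 1 to 2 with a single library left out (1 without untreated replicate 1 or treated replicate 3). At 1.25 µM the 6 calls were 2 with only the compared groups fitted and 3 without those replicates. At 48 h the 2 calls were 5 with library weights. For 1.25 against 0.63 µM the 1 call was 2 with library weights, 0 with only the compared groups, 2 without both replicates, and 1 to 2 with a library left out (2 without untreated 24 h replicate 2). The trend's 6 calls were 3 without both replicates, and the difference between times gave 1 with library weights. The cause of these moves was not tested. A fit of fewer groups has fewer residual degrees of freedom and also its own estimate of the spread. Over all genes, only the compared groups gave 6 calls at 0.63 µM (326 in the shared fit) and 324 at 1.25 µM (1688). Library weights gave 2312 at 48 h (1140) and 151 for the difference between times (5). At 0.63 µM, 237 genes were called without untreated replicate 1 and 49 without treated replicate 3. For 1.25 against 0.63 µM (226), counts were 350 with library weights, 43 with only those groups and 445 without untreated 24 h replicate 2. Without both replicates, calls over all genes also fell at 0.63 µM, at 1.25 µM and in the trend, and rose for 1.25 against 0.63 µM.

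Sign changes were as follows, on the log2 scale. With library weights, CDKN2A was -0.27 at 0.32 µM and -0.61 between untreated times, and CDKN1B was 0.16 at 1.25 µM, 0.10 in the trend and 0.026 at 48 h. Without untreated 24 h replicates 2 and 3, CDKN2A was -0.74 at 0.32 µM, -0.19 at 0.63 µM and -1.04 between untreated times, and CDKN1B 0.37 at 1.25 µM and 0.24 in the trend. Under median-of-ratios scaling, at 48 h CDKN1B was 0.17 and CDKN1C 0.12, and the CDKN2D difference between times was 0.041; under quantile normalization these were 0.14, 0.087 and 0.018. CDKN1B was 0.003 at 48 h without the 10 most abundant genes, and CDKN2A -0.003 between untreated times with a pseudocount of 5 TPM. With a single library left out, CDKN1A ran from -0.56 to 0.40 at 0.32 µM, -0.021 to 0.94 at 0.63 µM and -0.044 to 0.92 between untreated times. CDKN1B ran from -0.28 to 0.26 at 0.32 µM, -0.28 to 0.07 at 1.25 µM, -0.21 to 0.10 at 48 h and -0.17 to 0.055 in the trend. CDKN1C ran from -0.19 to 0.12 at 48 h. CDKN2A ran from -0.30 to 0.92 at 0.32 µM, -0.14 to 1.08 for the difference between times and -0.59 to 0.62 between untreated times. CDKN2D ran from -0.27 to 0.19 for 0.63 against 0.32 µM and from -0.41 to 0.049 for the difference between times.

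No pairing by replicate number was visible: deviations of same-numbered libraries correlated at -0.093 to 0.115. This does not show how the libraries were handled, and the labels do not say what the number marks. With the replicate block the counts of called inhibitor genes were unchanged except in the trend, where 5 were called in place of 6 because CDKN1C did not pass (adjusted p = 0.0573, limma). TPM holds no depth, so what depth limits is unknown.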
